A study of Mus musculus with 6 samples.

Results

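Transcripts of 40 genes of glycolysis, the pentose phosphate pathway and the entry of pyruvate into mitochondria were followed in mouse stem-like medulloblastoma cells carrying 1 of 3 CRISPR guides. The genes were taken by symbol as members of these pathways, by a rule that uses no measured value, and make up 40 of the 24063 gene symbols in the deposited tables. They were nevertheless chosen with earlier results of these data known. They were grouped into 19 steps, from glucose uptake to the 2 ends of the pathway, lactate export and pyruvate entry. All 6 libraries came from cells of cerebellar origin with the genotype Math1-Cre; SmoM2, in which a Cre recombinase driven by the Math1 (Atoh1) promoter switches on SmoM2, a constitutively active form of the Hedgehog transducer Smoothened. The 3 groups had 2 libraries each. sgGal4-4, named for the yeast gene Gal4, is labelled WT, and sgMiat-6 and sgMiat-96 are both labelled as a knockdown of Miat, a long noncoding RNA. The labels give no time or animal age, and do not say whether the 2 libraries of a group came from separate cultures or clones, so p-values here measure the spread between libraries, which may be technical.

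Glycolysis splits glucose into pyruvate in the cytosol, and hexokinase and phosphofructokinase are its most controlled steps. Pyruvate is then either reduced to lactate by lactate dehydrogenase and exported with a proton by monocarboxylate transporters, or taken into mitochondria, where the pyruvate dehydrogenase complex, held in check by pyruvate dehydrogenase kinases, makes acetyl-CoA and pyruvate carboxylase makes oxaloacetate. The pentose phosphate pathway leaves glycolysis at glucose 6-phosphate and yields NADPH and ribose 5-phosphate; granule neuron progenitors and the medulloblastomas that arise from them with active Hedgehog signalling are known for aerobic glycolysis.

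Each library held between 27324587 and 29671461 counts over all transcript rows, and 18438891 to 19650274 after 1 row per symbol was kept. The Miat transcript was counted 140 and 139 times under sgGal4-4 and never in the 4 Miat libraries, which puts it at least 178-fold lower when a group floor of 3 counts is used. Replicates differed by more than sampling noise in every group, most between the sgMiat-6 libraries (chi-square per gene 20.6, where noise alone gives 1), then sgMiat-96 (15.1) and sgGal4-4 (4.34). Exons of 16 of the 40 genes overlap another gene, such as Hk1os at Hk1, Ikbkg at G6pdx and Gm10876 at Pck2, and where strand is not stated their reads cannot be told apart. The summed level of 12 granule neuron progenitor markers was 1070 to 1117 CPM (counts relative to a TMM-scaled library total) in sgGal4-4, 2298 to 2539 with sgMiat-6 and 2037 to 2106 with sgMiat-96, most of it from Ccnd1, while Atoh1 had no count in any library and Barhl1 and Cntn2 stayed below 1 CPM. Of its 9 tested markers 5 rose and 3, Gli1, Gli2 and Mycn, fell. Markers are counted here by the mean of both Miat groups against sgGal4-4 (edgeR quasi-likelihood test, adjusted p under 0.05). In that comparison 33.1% of all tested genes were higher and 33.4% lower. The sum of 8 mature neuron markers, mostly Map2, was 763 CPM in each sgGal4-4 library, 378 to 513 with sgMiat-6 and 307 to 312 with sgMiat-96, with Syt1, Gabra6 and Stmn2 at 0 throughout. Only 3 of these markers could be tested, of which 1 rose and 1 fell, near the shares over all tested genes. The summed level of 12 astrocyte markers was 3775 to 3877 CPM in the sgGal4-4 libraries, 1026 to 1124 with sgMiat-6 and 912 to 916 with sgMiat-96, although Gjb6 and Gja1 were at 0 throughout. Of its 10 tested markers 9 fell and S100b rose. The sum of 8 oligodendrocyte lineage markers, mostly Olig1 and Olig2, went from 2030 to 2105 CPM in sgGal4-4 to 3115 to 3261 with sgMiat-6 and 4755 to 4852 with sgMiat-96, while Sox10, Mbp and Mog stayed below 1 CPM. Of its 5 tested markers 3 rose and 1 fell. The part of these marker shifts in the results below was not tested, and in bulk RNA fewer cells of a type and less RNA per cell cannot be told apart.

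Most of the enzymes that carry glucose carbon from glucose 6-phosphate to lactate were higher with both Miat guides, and higher with sgMiat-96 than with sgMiat-6. Of 37 genes with enough counts to test, 18 rose and 12 fell when the mean of both Miat groups was set against sgGal4-4 (edgeR quasi-likelihood test, adjusted p under 0.05, here the meaning of called). In the same comparison 66.5% of all tested genes were called, 33.1% higher and 33.4% lower, so the share of these genes called lower was near that of the transcriptome. The median log2 fold change was 0.24 over the 37 genes and 0.00 over all genes. Slc2a1, Ldha, Pdk1, Eno1 and Pgk1 had the largest rises, and Pck2, Pcx, Slc2a3, Pfkfb2 and Pfkfb3 the largest falls. Eno2, Pfkfb4 and Pdk4 had at most 8 counts in any library and were not tested.

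Together the 40 genes took 1.07% ± 0.0075 (SD, n = 2) of scaled counts in sgGal4-4, 1.55% ± 0.106 in sgMiat-6 and 2.29% ± 0.096 in sgMiat-96. The groups did not overlap. This sum is carried by a few abundant transcripts, and of the 292 tested genes averaging 500 CPM or more, 67.8% were called higher and 17.8% lower. Of the 9 pathway genes above that level 8 rose, and Tkt was not called. The genes that rose also had shorter transcripts, with a median of 1820.5 bp (n = 18) against 3996 bp for those that fell (n = 12) and 2843.5 bp over all tested genes. With the genome-wide trend of fold change on transcript length removed, 18 rose and 13 fell, but these were not all the same genes. In that fit 4211 of all 13220 tested genes were called higher and 4458 lower. Hk2 lost its call, Pdhb turned to -0.14 and Pgls went to 0.00, and the genes that gained a call are not named here. The median log2 fold change of the pathway genes was then 0.19, against -0.01 over all genes.

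**Figure D1:**
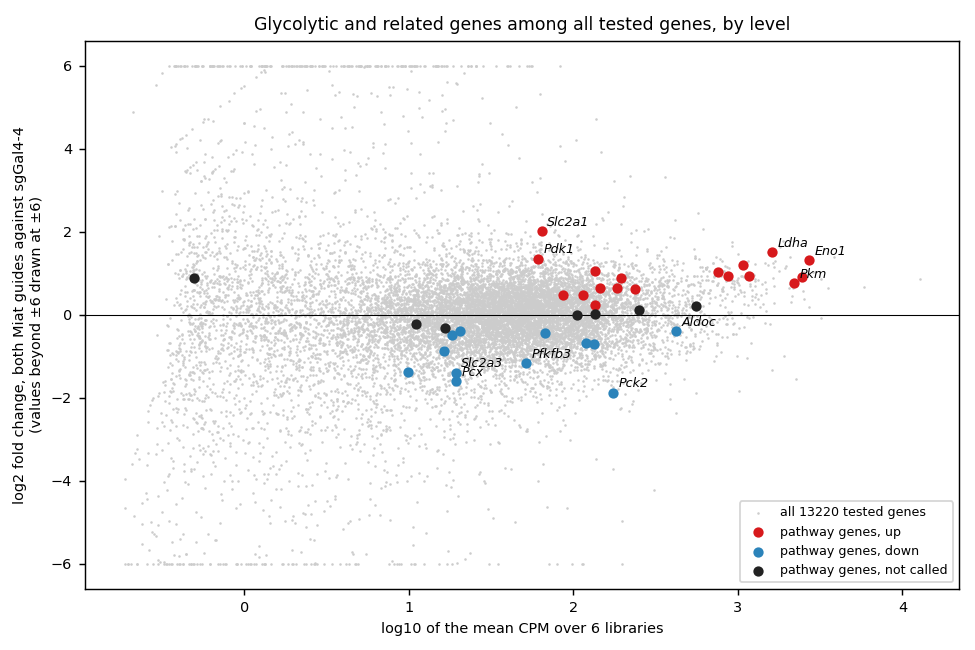
Log2 fold change of both Miat guides against sgGal4-4 (vertical axis) against the log10 of the mean CPM over 6 libraries (horizontal axis), for all tested genes in grey and for the 37 pathway genes in red (called higher), blue (called lower) or black (not called). The 8 called genes above 500 CPM are all red, and no gene that fell reaches that level.

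Promoters are shown for 3 genes that rose and 3 that fell, as examples of the letters that were counted. They were chosen after their values were seen, and all but Slc16a1 are among the largest changes named above. Each line gives the 250 bases before the RefSeq transcript start, 5′ to 3′, in GRCm38.p6, with capitals marking every match, on either strand, to ACGTG or GCGTG, the core letters of hypoxia response elements, or to TGATGNAA, letters of elements bound by Atf4. Pgk1, Ldha and Pdk1 rose, and Pcx, Slc16a1 and Pck2 fell.
Pgk1, chrX:106186850-106187099, plus strand: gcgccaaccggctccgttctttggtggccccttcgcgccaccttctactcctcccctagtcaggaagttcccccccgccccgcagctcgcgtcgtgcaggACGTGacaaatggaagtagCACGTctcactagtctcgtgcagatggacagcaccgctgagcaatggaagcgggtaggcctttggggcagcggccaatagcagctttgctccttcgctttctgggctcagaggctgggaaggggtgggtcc
Ldha, chr7:46846832-46847081, plus strand: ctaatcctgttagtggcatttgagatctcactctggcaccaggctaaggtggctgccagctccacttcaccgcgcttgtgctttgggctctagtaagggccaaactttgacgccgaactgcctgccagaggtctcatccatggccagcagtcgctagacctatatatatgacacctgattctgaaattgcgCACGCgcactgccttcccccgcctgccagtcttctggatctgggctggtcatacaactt
Pdk1, chr2:71872974-71873223, plus strand: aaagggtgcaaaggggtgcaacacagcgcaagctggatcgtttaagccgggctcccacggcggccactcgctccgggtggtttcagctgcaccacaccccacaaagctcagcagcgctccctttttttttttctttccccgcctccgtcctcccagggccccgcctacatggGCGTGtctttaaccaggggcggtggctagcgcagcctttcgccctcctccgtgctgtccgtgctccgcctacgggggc
Pcx, chr19:4510222-4510471, plus strand: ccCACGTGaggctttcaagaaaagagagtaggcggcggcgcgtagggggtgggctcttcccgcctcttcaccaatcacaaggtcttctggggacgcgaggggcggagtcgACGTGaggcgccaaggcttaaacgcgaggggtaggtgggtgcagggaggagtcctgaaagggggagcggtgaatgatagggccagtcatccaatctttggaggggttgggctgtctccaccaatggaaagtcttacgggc
Slc16a1, chr3:104638414-104638663, plus strand: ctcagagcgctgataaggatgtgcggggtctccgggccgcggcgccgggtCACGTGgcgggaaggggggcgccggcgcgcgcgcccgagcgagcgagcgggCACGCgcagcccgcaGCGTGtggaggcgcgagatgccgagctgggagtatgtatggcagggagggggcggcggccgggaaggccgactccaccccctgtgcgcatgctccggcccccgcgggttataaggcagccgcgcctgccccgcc
Pck2, chr14:55540016-55540265, plus strand: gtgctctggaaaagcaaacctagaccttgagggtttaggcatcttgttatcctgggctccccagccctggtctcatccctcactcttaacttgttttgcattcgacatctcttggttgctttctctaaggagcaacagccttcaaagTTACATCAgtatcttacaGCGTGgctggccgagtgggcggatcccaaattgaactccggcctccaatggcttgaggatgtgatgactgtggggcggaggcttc
ACGTG or GCGTG was present in 15 of 18 windows of genes that rose, 10 of 11 of genes that fell and 6 of 7 of genes not called, against 38.6% of all 32851 RefSeq windows and 55.7% of those of tested genes. With the 2 pooled, a match was thus about as frequent in genes of either direction. ACGTG alone was in 5 of the 18 windows of genes that rose and 7 of the 11 of genes that fell. It was in 2 of the 7 of genes not called and 21.4% of those of tested genes. GCGTG was in 13 of 18, 7 of 11 and 4 of 7 in the same order, against 44.7% of those of tested genes. CACGTG, the palindromic E-box that overlaps ACGTG on both strands, was in none of the 18 windows of genes that rose and in 5 of the 11 of genes that fell, those of Pfkm, Pfkfb2, Pfkfb3, Slc16a1 and Pcx. CACGTG was also in 1 of the 7 windows of genes not called, in 6.02% of all windows and in 8.20% of those of tested genes. TGATGNAA was found once, in Pck2, against 3.45% of all windows and 1.89% of those of tested genes. These matches describe the letters only, and Slc2a3 has no entry in the table of promoters.

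Glucose enters brain cells mainly through Slc2a1 (GLUT1, chr4:119108711-119137983) and, in neurons, Slc2a3 (GLUT3, chr6:122727809-122801640), both given in the GRCm38 annotation. Slc2a1 stood at 21.8 and 19.8 CPM in the sgGal4-4 libraries, 71.8 and 63.5 CPM with sgMiat-6, and 109 and 97.9 CPM with sgMiat-96. The 3 groups did not overlap, and the transcript rose by 2.01 ± 0.12 (SE) on the log2 scale over both guides (edgeR adjusted p = 1.23e-08). Slc2a3 moved the other way, from 32.5 and 33.1 CPM in sgGal4-4 to 14.8 and 11.9 CPM with sgMiat-6 and 11 and 12 CPM with sgMiat-96. It fell by 1.40 ± 0.13 (edgeR adjusted p = 6.47e-07), and the 2 Miat groups overlapped each other. Per kb of transcript, Slc2a1 made up 49.3% ± 2.04 of the pair in sgGal4-4, 88.7% ± 0.674 with sgMiat-6 and 93.2% ± 0.871 with sgMiat-96 (each ± SD over 2 libraries).

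Hexokinase, which traps glucose as glucose 6-phosphate, showed no common change. Hk1, the ubiquitous brain form, lay between 123 and 164 CPM in all 6 libraries with overlapping groups, and its log2 difference was 0.02 ± 0.10. Hk2, the form known from rapidly growing cells, was at 23.3 and 21.8 CPM in sgGal4-4, 15.8 and 16.0 CPM with sgMiat-6, and 13.5 and 19.0 CPM with sgMiat-96. All 4 Miat libraries were below both controls, and Hk2 fell by 0.49 ± 0.14 (edgeR adjusted p = 0.00803), a call that was lost after removal of the length trend, with a log2 difference of -0.14 (edgeR adjusted p = 0.337), and without sgGal4-4 replicate 1 (edgeR adjusted p = 0.0663).

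Phosphofructokinase commits fructose 6-phosphate to glycolysis and is made of liver (Pfkl), muscle (Pfkm) and platelet (Pfkp) type subunits. Pfkl went from 104 and 106 CPM in sgGal4-4 to 130 and 155 with sgMiat-6 and 179 and 195 with sgMiat-96, a rise of 0.64 ± 0.10 (edgeR adjusted p = 1.03e-04). Pfkm, at 162 and 157 CPM in sgGal4-4, was at 91.2 and 101 with sgMiat-6 and 97.4 and 107 with sgMiat-96, and fell by 0.68 ± 0.09 (edgeR adjusted p = 2.29e-05). Pfkp, at 22 to 24.8 CPM in sgGal4-4, was at 11.2 to 14.5 CPM in the 4 Miat libraries and fell by 0.87 ± 0.14 (edgeR adjusted p = 1.26e-04). None of these subunits overlapped between the control and the Miat libraries, but their sum did. Summed per kb, phosphofructokinase was at 0.835 of the control level with sgMiat-6 and 0.992 with sgMiat-96. Pfkl's share went from 31.2% ± 0.889 to 50.6% ± 1.16 and 56.0% ± 0.324, and Pfkm's from 62.4% ± 0.455 to 45.3% ± 1.35 and 40.3% ± 0.415 (each ± SD over 2 libraries).

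The bifunctional Pfkfb enzymes make and break fructose 2,6-bisphosphate, the strongest activator of phosphofructokinase. Pfkfb3, the form with the highest kinase activity, was at 84.2 and 78.0 CPM in sgGal4-4, 44.4 and 40.6 with sgMiat-6, and 29.3 and 31.9 with sgMiat-96, and fell by 1.17 ± 0.10 (edgeR adjusted p = 3.78e-07). Pfkfb2 was at 15.8 and 16.3 CPM, then 10.3 and 8.17, then 4.83 and 3.46 in the same order, and fell by 1.37 ± 0.16 (edgeR adjusted p = 8.75e-06). Both ran in the order sgGal4-4, sgMiat-6, sgMiat-96 without overlap, and both were called lower with sgMiat-96 than with sgMiat-6. Pfkfb4, known as hypoxia-inducible, had between 0 and 8 counts per library. Reads of Pfkfb2 may include those of Yod1 and Gm29427, whose exons overlap it, and its annotated rows differed in count, the lowest holding 42.5% of the highest.

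**Figure D2:**
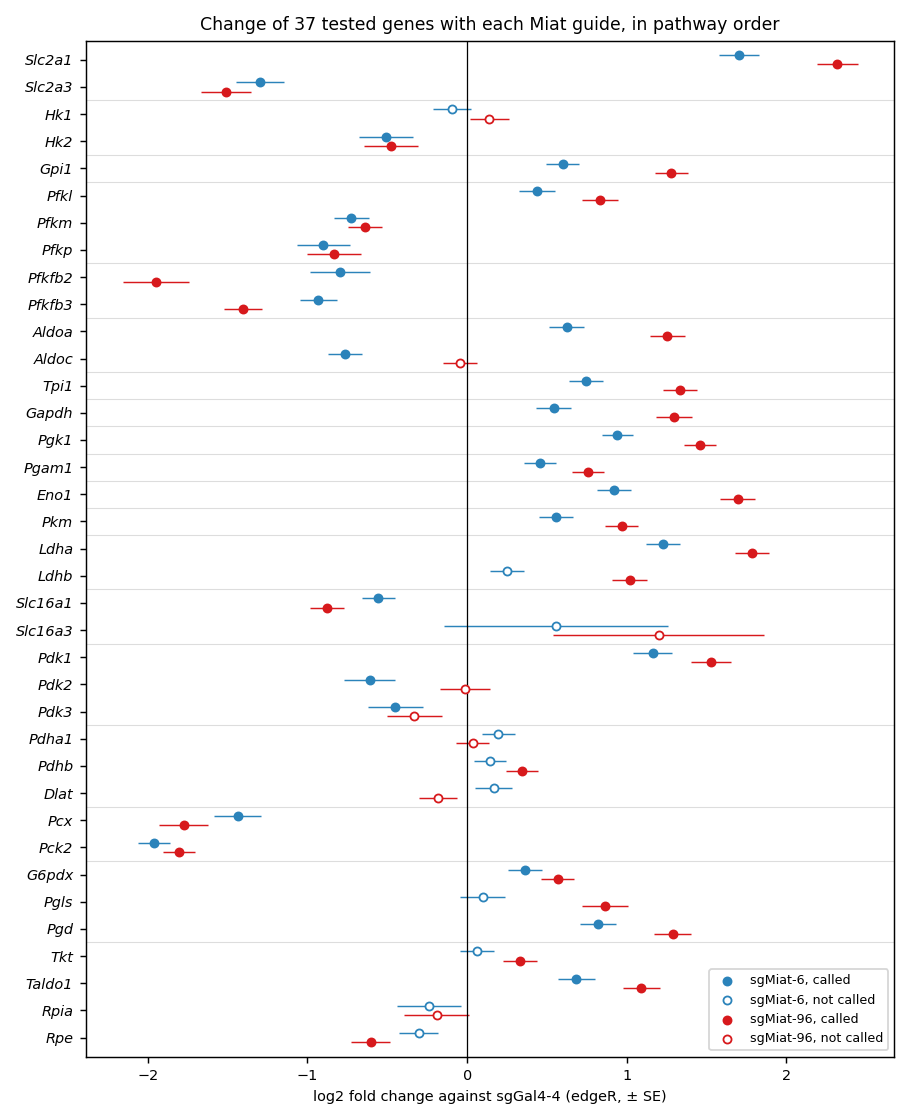
Log2 fold change against sgGal4-4 (horizontal axis, ± SE) of the 37 tested genes in pathway order, with sgMiat-6 in blue and sgMiat-96 in red. Filled points were called and open points were not. For Gpi1, Aldoa, Tpi1, Gapdh, Pgk1, Pgam1, Eno1, Pkm and Ldha the red point lies right of the blue one, while Slc2a3, Pfkfb2, Pfkfb3, Slc16a1, Pcx and Pck2 lie left of 0 with both guides.

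The enzymes of the middle and lower pathway that have a single main gene rose together. Gpi1, which converts glucose 6-phosphate to fructose 6-phosphate, went from 526 and 537 CPM in sgGal4-4 to 755 and 853 with sgMiat-6 and 1297 and 1281 with sgMiat-96. Tpi1, which equilibrates the triose phosphates, was at 436 and 438 CPM, then 688 and 780, then 1155 and 1046. Both rose with each guide, by 0.94 ± 0.09 and 1.04 ± 0.10 on the log2 scale over both guides (edgeR adjusted p = 1.53e-06 and 8.81e-07).

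Gapdh, the NADH-forming dehydrogenase often used as a reference gene, was at 1424 and 1569 CPM in sgGal4-4, 2076 and 2281 with sgMiat-6, and 3925 and 3420 with sgMiat-96. It rose by 0.92 ± 0.10 (edgeR adjusted p = 4.17e-06). Pgk1, which makes the first ATP of the pathway, was at 576 and 568 CPM, then 1081 and 1114, then 1609 and 1537, a rise of 1.2 ± 0.09 (edgeR adjusted p = 1.15e-07). Pgam1, the phosphoglycerate mutase, had the smallest rise of this stretch, from 183 and 168 CPM to 247 and 235 and then 302 and 291, or 0.61 ± 0.09 (edgeR adjusted p = 5.07e-05). Reads of Gapdh, Pgk1, Pgam1, Aldoa and Ldha may be shared with processed pseudogenes, since the annotation names 2 for each.

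Eno1, the ubiquitous enolase (chr4:150236721-150248879), was at 1301 and 1349 CPM in sgGal4-4, 2345 and 2676 with sgMiat-6, and 4401 and 4180 with sgMiat-96. It had the largest rise among the genes between aldolase and pyruvate kinase, 1.31 ± 0.10 (edgeR adjusted p = 1.21e-07). Eno2, the neuronal enolase, was close to absent, with 7 and 7 counts in sgGal4-4 and 0 to 7 in the Miat libraries. Pkm, pyruvate kinase, went from 1505 and 1474 CPM to 2061 and 2320 and then 2866 and 2959, a rise of 0.76 ± 0.09 (edgeR adjusted p = 1.02e-05). Its rows for the M1 and M2 splice forms held nearly the same counts, so the 2 forms could not be separated here.

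Aldolase is made from 2 genes here, and they did not move together. Aldoa, the ubiquitous form, was at 711 and 718 CPM in sgGal4-4, 1024 and 1176 with sgMiat-6, and 1806 and 1602 with sgMiat-96, and rose by 0.94 ± 0.10 (edgeR adjusted p = 2.86e-06). Aldoc, the brain form known from astrocytes and Purkinje cells, was at 506 and 486 CPM in sgGal4-4, 273 and 311 with sgMiat-6, and 503 and 460 with sgMiat-96. It fell with sgMiat-6 by 0.76 ± 0.11 (edgeR adjusted p = 5.71e-05), its difference with sgMiat-96 was -0.04 ± 0.11, and the difference between the guides themselves was 0.72 ± 0.11 (edgeR adjusted p = 8.14e-04). The astrocyte markers were low with both guides, at 1026 to 1124 and 912 to 916 CPM. Aldoa's share of the pair was 60.7% ± 0.829 in sgGal4-4, 80.1% ± 0.112 with sgMiat-6 and 79.1% ± 0.354 with sgMiat-96 (each ± SD over 2 libraries).

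**Figure D3:**
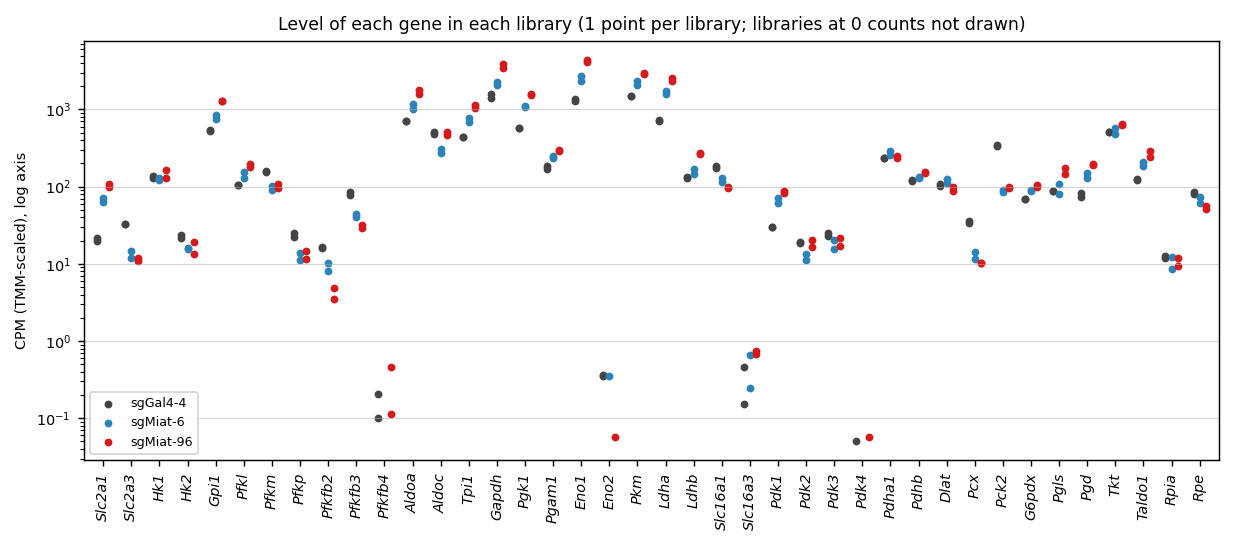
TMM-scaled CPM (vertical axis, log scale) of the 40 genes in each library, 1 point per library, with sgGal4-4 in dark grey, sgMiat-6 in blue and sgMiat-96 in red, and libraries at 0 counts not drawn. The points of Gapdh, Eno1, Pkm and Ldha climb from 709 to 1569 CPM in the controls to 2339 to 4401 CPM with sgMiat-96, while Pck2 drops from 336 to 342 CPM to 84.8 to 99.4 CPM in the 4 Miat libraries.

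Lactate dehydrogenase was one of the steps with the largest increase. Ldha, whose subunit favours lactate formation, was at 722 and 709 CPM in sgGal4-4, 1598 and 1751 with sgMiat-6, and 2586 and 2339 with sgMiat-96, and rose by 1.5 ± 0.10 (edgeR adjusted p = 3.15e-08). Ldhb, the heart-type subunit, was at 133 and 130 CPM, then 144 and 169, then 271 and 262. With sgMiat-96 Ldhb rose by 1.02 ± 0.11 (edgeR adjusted p = 3.26e-06), and with sgMiat-6 its difference was 0.25 ± 0.11 (edgeR adjusted p = 0.0669). Ldha's share of the pair was 79.4% ± 0.0386 in sgGal4-4, 88.4% ± 0.529 with sgMiat-6 and 86.8% ± 0.553 with sgMiat-96 (each ± SD over 2 libraries).

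Slc16a1 (MCT1), the main lactate carrier here, fell while Ldha rose. It was at 177 and 183 CPM in sgGal4-4, 129 and 115 with sgMiat-6, and 97.2 and 98.5 with sgMiat-96, a decrease of -0.72 ± 0.09 (edgeR adjusted p = 1.16e-05). Slc16a3 (MCT4), the exporter known from strongly glycolytic cells, had only 3 to 13 counts per library and was not called, with a log2 difference of 0.88 ± 0.60. Per kb, Slc16a1 held nearly all of the pair in every library, the lowest share being 98.66% in sgMiat-96 replicate 2.

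Pyruvate dehydrogenase kinases phosphorylate and switch off the pyruvate dehydrogenase complex. Pdk1, known as a hypoxia target, was at 29.8 CPM in each sgGal4-4 library, 72.2 and 61.2 with sgMiat-6, and 83.3 and 88.6 with sgMiat-96, and rose by 1.34 ± 0.11 (edgeR adjusted p = 3.21e-07). Pdk2, the widely expressed form, was at 19.0 and 18.5 CPM, then 11.3 and 13.3, then 20.5 and 16.6; it fell with sgMiat-6 by 0.61 ± 0.16 (edgeR adjusted p = 0.00649) and was not called with sgMiat-96. Pdk3 went from 23.3 and 25.3 CPM to 15.4 and 20.2 and then 21.8 and 16.8. Its fall of 0.39 ± 0.15 over both guides (edgeR adjusted p = 0.0308) was lost without sgGal4-4 replicate 1, sgGal4-4 replicate 2, sgMiat-6 replicate 1 or sgMiat-96 replicate 2 (edgeR adjusted p = 0.0536, 0.171, 0.0653 and 0.101).

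Pdk1 thus went from 22% ± 0.467 of the kinase transcripts per kb in sgGal4-4 to 47.5% ± 6.98 under sgMiat-6 and 48.3% ± 5.30 under sgMiat-96, and Pdk3 from 46.4% ± 1.71 to 32.6% ± 5.28 and 27.9% ± 3.31 (each ± SD over 2 libraries). The summed kinase level was 1.04 of control with sgMiat-6, where libraries overlapped, and 1.31 of control with sgMiat-96. The complex itself moved little. Pdha1, its E1 alpha subunit, lay at 236 to 286 CPM in all libraries and Dlat, its E2 subunit, at 86.9 to 126 CPM, neither called over both guides. Pdhb, E1 beta, was at 121 and 120 CPM, then 131 and 135, then 152 and 153, and its rise of 0.24 ± 0.09 (edgeR adjusted p = 0.024) was lost without sgGal4-4 replicate 1 or replicate 2 (edgeR adjusted p = 0.192 and 0.231) and with total-count scaling (edgeR adjusted p = 0.264). The length trend reversed its sign, to -0.14.

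The enzymes that turn pyruvate into oxaloacetate and oxaloacetate into phosphoenolpyruvate had the largest loss of any step. Pcx, pyruvate carboxylase, a mainly astrocytic enzyme in brain (chr19:4510472-4621752), was at 35.9 and 34.0 CPM in sgGal4-4, 14.2 and 11.6 with sgMiat-6, and 10.2 in each sgMiat-96 library, and fell by 1.61 ± 0.12 (edgeR adjusted p = 1.54e-07). Pck2, the mitochondrial phosphoenolpyruvate carboxykinase and a known Atf4 target (chr14:55540266-55551242), was at 342 and 336 CPM in sgGal4-4, 84.8 and 89.3 with sgMiat-6, and 99.4 and 94.8 with sgMiat-96. It fell by 1.88 ± 0.08 (edgeR adjusted p = 8.18e-10), a level 3.69-fold lower with libraries that did not overlap. Summed per kb, the 2 genes were at 0.266 of control with sgMiat-6 and 0.287 with sgMiat-96. Astrocyte markers also fell, 9 of 10 tested against 33.4% of all tested genes, and their part in the level of Pcx was not tested.

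All 3 genes of the oxidative, NADPH-forming branch of the pentose phosphate pathway rose over both guides. G6pdx, glucose 6-phosphate dehydrogenase, was at 68.8 and 68.4 CPM in sgGal4-4, 87.0 and 89.5 with sgMiat-6, and 104 and 99.1 with sgMiat-96, and rose by 0.46 ± 0.09 (edgeR adjusted p = 6.47e-04). Pgd, 6-phosphogluconate dehydrogenase, had the largest rise of the branch, 1.05 ± 0.10 (edgeR adjusted p = 1.37e-06), from 83 and 74 CPM to 128 and 149 and then 189 and 194. Pgls, the lactonase between them, was at 88.8 and 87.0 CPM, then 79.1 and 109, then 172 and 148. It was called with sgMiat-96, at 0.86 ± 0.14 (edgeR adjusted p = 1.34e-04), but not with sgMiat-6, at 0.10 ± 0.14, and its log2 difference over both guides went from 0.48 to 0.00 when the length trend was removed.

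In the non-oxidative branch, which trades sugar phosphates with glycolysis, Taldo1 (transaldolase) rose by 0.89 ± 0.10 (edgeR adjusted p = 7.47e-06), from 125 and 123 CPM to 187 and 210 and then 289 and 239. Tkt, transketolase, which also had the highest level per kb of the branch in sgGal4-4, lay at 505 and 508 CPM, then 488 and 569, then 642 and 632, and was called with sgMiat-96, at 0.33 ± 0.10 (edgeR adjusted p = 0.0129). Rpe, the ribulose phosphate epimerase, went from 79.8 and 84.6 CPM to 72.5 and 60.7 and then 56.4 and 51.7, and fell by 0.45 ± 0.10 (edgeR adjusted p = 0.00174). Rpia, the isomerase that forms ribose 5-phosphate, was near 8.48 to 12.5 CPM in all libraries and was not called. Summed per kb, the oxidative branch was at 1.29 and 1.91 of control with sgMiat-6 and sgMiat-96, and the non-oxidative branch at 1.2 and 1.47.

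**Figure D4:**
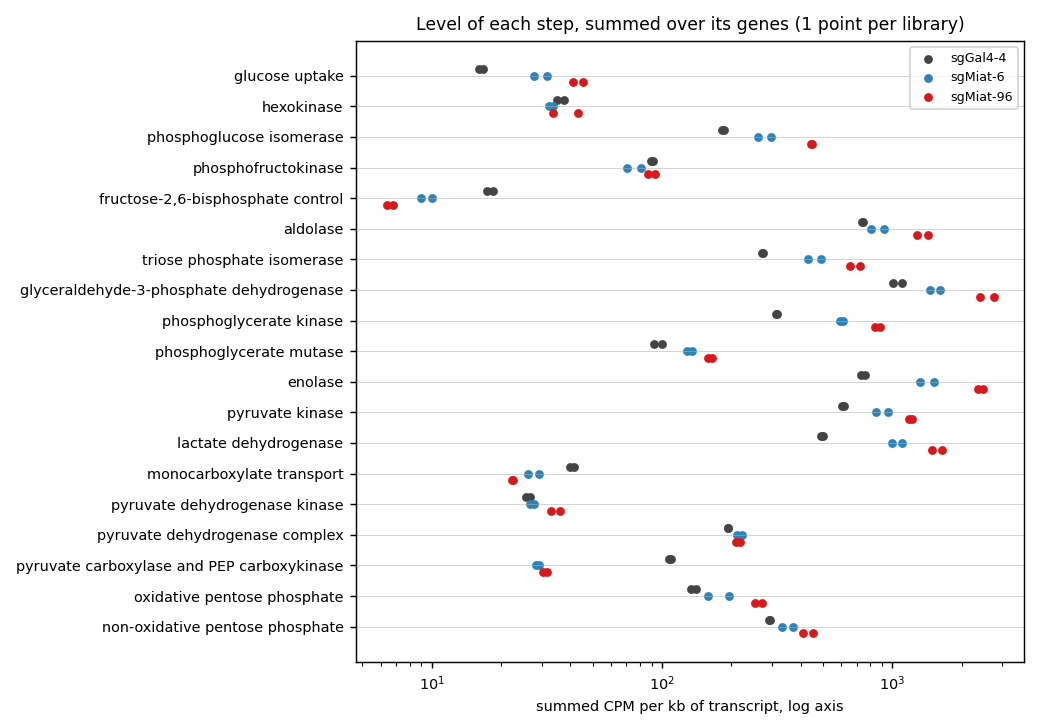
Level of each of the 19 steps in each library, as CPM per kb of transcript summed over the genes of the step (horizontal axis, log scale), 1 point per library, with sgGal4-4 in dark grey, sgMiat-6 in blue and sgMiat-96 in red. In 13 steps the 4 Miat libraries lie above both controls, in 3 below, and in 3, hexokinase, phosphofructokinase and pyruvate dehydrogenase kinase, they overlap.

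Read by step, per kb of transcript, lactate dehydrogenase was at 2.10 and 3.15 of control with sgMiat-6 and sgMiat-96, enolase at 1.89 and 3.24, and phosphoglycerate kinase at 1.92 and 2.75. Glucose uptake, where 1 transporter rose and the other fell, was at 1.81 and 2.64. Of the 13 steps above control, 12 ran in the order sgGal4-4, sgMiat-6, sgMiat-96 without overlap, the exception being the pyruvate dehydrogenase complex at 1.13 and 1.11. The steps below control were control of fructose 2,6-bisphosphate at 0.529 and 0.367, monocarboxylate transport at 0.682 and 0.550, and the Pcx and Pck2 pair. These ratios compare means of 2 libraries and were not tested.

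Gene by gene, 17 of the 37 had all 4 Miat libraries above both controls, a pattern held by 34% of all tested genes, and 11 had all 4 below, against 33%. All 17 also ran in the rising order sgGal4-4, sgMiat-6, sgMiat-96 without overlap, which 18.8% of all tested genes did, while 5 of the 37 ran in the falling order, against 17.2%. Among the abundant genes, at 500 CPM or more, 8 of 9 had all Miat libraries above the controls and in the rising order, against 66.8% and 59.9% of all 292 such genes.

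In sgGal4-4 the most abundant transcripts per kb were Gapdh at 1052 ± 71.9, Eno1 at 746 ± 19.4, Pkm at 612 ± 8.99, Aldoa at 450 ± 3.13 and Ldha at 394 ± 4.90 CPM per kb (SD, n = 2). With sgMiat-96 the order was Gapdh at 2583 ± 251, Eno1 at 2416 ± 88.0, Ldha at 1356 ± 95.9, Pkm at 1197 ± 27.1 and Aldoa at 1073 ± 90.9 CPM per kb. In sgGal4-4 these 5 genes did not overlap one another. With sgMiat-96 Gapdh and Eno1 overlapped, and Pkm and Aldoa lay close, at 1178 and 1217 against 1138 and 1009. Aldoc was seventh at 292 ± 8.10 CPM per kb in sgGal4-4 and was passed with either Miat guide by Tpi1 and Gpi1.

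**Figure D5:**
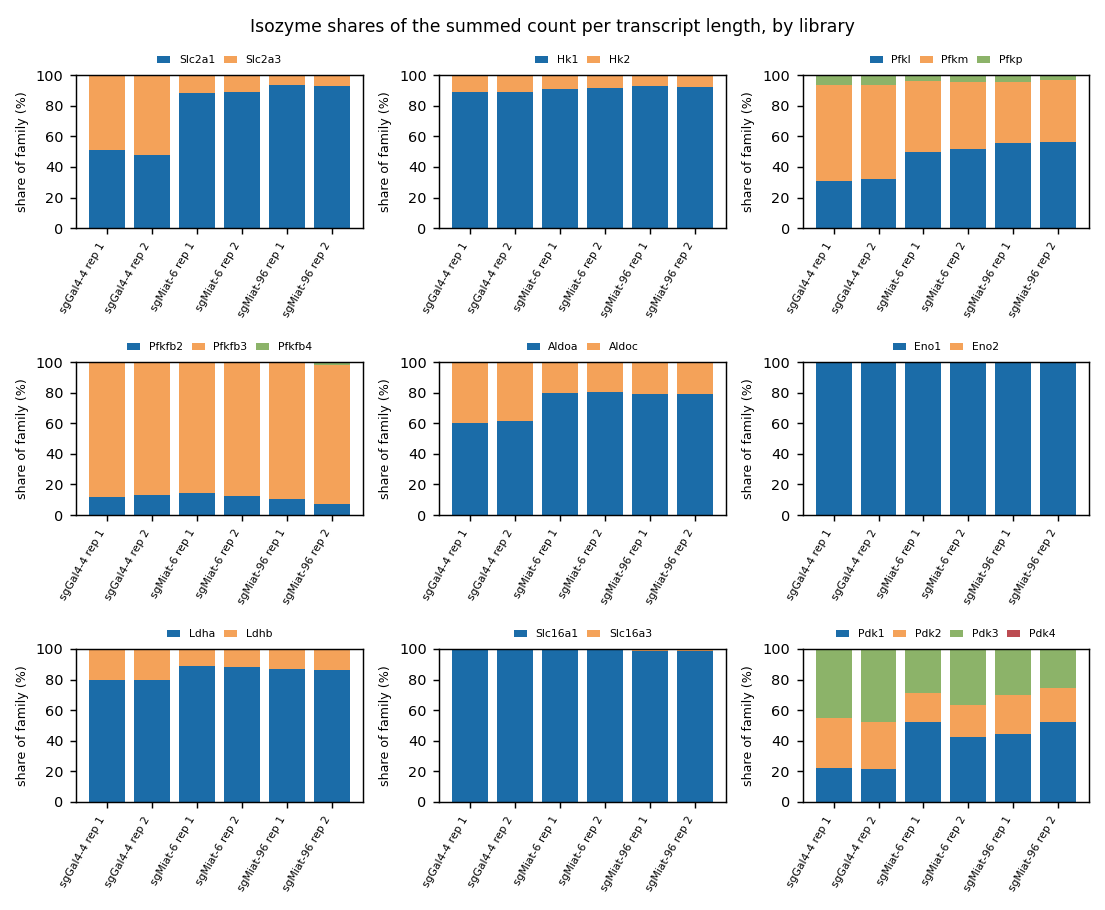
Share of each isozyme in the summed count per transcript length of its family (vertical axis, percent), with 1 bar per library and 9 families. Slc2a1, Pfkl, Aldoa, Ldha and Pdk1 take larger shares in all 4 Miat libraries than in both controls, and the shares of Eno1 and Slc16a1 stay near the whole of their families.

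Across the 9 families with several genes 22 shares were compared. With 4 Miat libraries against 2 controls the smallest p that an exact two-sided permutation test can give is 0.133, reached by 16 of the 22 shares, and 0.183 after Benjamini-Hochberg adjustment, so no share could pass 0.05. Those of the Pfkfb family, Pdk4 and the Slc16a pair were the ones that overlapped.

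Each guide was then compared with sgGal4-4 alone; both comparisons use the same 2 control libraries and are given side by side. With sgMiat-6 15 of the 37 genes rose and 12 fell, where 53% of all tested genes were called, 26.9% higher and 26.1% lower. With sgMiat-96 19 rose and 10 fell, where 68.2% of all genes were called, 34% higher and 34.2% lower. The median log2 fold change was 0.17 with sgMiat-6 and 0.34 with sgMiat-96, against 0.02 and 0.00 over all genes. Called higher with each guide were 15 genes, Slc2a1, Gpi1, Pfkl, Aldoa, Tpi1, Gapdh, Pgk1, Pgam1, Eno1, Pkm, Ldha, Pdk1, G6pdx, Pgd and Taldo1. Called lower with each were 9, Slc2a3, Hk2, Pfkm, Pfkp, Pfkfb2, Pfkfb3, Slc16a1, Pcx and Pck2. Of the 9 abundant genes 8 were called higher with sgMiat-6 and 9 with sgMiat-96, against 58.6% and 69.9% of all 292 genes at that level. With the length trend removed the sgMiat-96 difference of Hk2 turned to 0.043. No gene was called in opposite directions, and Dlat, Hk1, Pdha1, Rpia and Slc16a3 were called with neither guide.

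The direct comparison of sgMiat-96 with sgMiat-6 sets no control level against either guide, but was fitted over all 3 groups, so the sgGal4-4 libraries enter its filter, scaling and estimate of spread. In it 18 of the 37 genes were higher and 4 lower, where 36.7% of all tested genes were called, 17.8% higher and 18.8% lower, and the median log2 difference was 0.30 against 0.01 over all genes. Gapdh differed by 0.75 ± 0.11 and Eno1 by 0.77 ± 0.11 (edgeR adjusted p = 8.37e-04 and 6.31e-04), and Pgls and Ldhb each by 0.77. The lower genes were Pfkfb2 at -1.15 ± 0.21, Pfkfb3 at -0.47 ± 0.12, Dlat at -0.35 ± 0.12 and Slc16a1 at -0.32 ± 0.11 (edgeR adjusted p = 0.00205, 0.00964, 0.033 and 0.0302). Fitted on the 4 Miat libraries alone, 16 were higher and 2 lower, where 2019 and 2193 of 12730 genes were called higher and lower. With total-count scaling the median of all genes was -0.14. The split there was 13 higher and 7 lower, against 1380 and 3720 of 13220 genes. Of the 9 abundant genes 8 were higher with sgMiat-96, against 60.3% of all such genes. Without sgMiat-96 replicate 1 the median log2 difference of the pathway genes was 0.27 against 0 over all genes. Without sgMiat-6 replicate 1 it was 0.20 against 0.01, and without sgMiat-6 replicate 2 it was 0.32 against 0.01. Leaving out either sgGal4-4 library gave 0.30 against 0.01.

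Beyond these 40 genes, 109 others of the same metabolism were listed, of which 93 had enough counts to test, and 40 rose and 26 fell over both guides, with a median of 0.15. Over all 13220 tested genes 66.5% were called in this comparison, 33.1% higher and 33.4% lower, and the counts of the lists below are read against those shares. Among 17 tested further isozymes and carriers of glycolysis 6 rose and 3 fell. Bsg (basigin), the chaperone that brings monocarboxylate transporters to the cell surface, rose by 0.93 ± 0.09 (edgeR adjusted p = 2.23e-06) from 344 and 345 CPM in sgGal4-4 to 501 and 552 and then 862 and 764, opposite to Slc16a1. Pgam5, a mitochondrial phosphatase named for its mutase-like fold, rose by 0.56 ± 0.09 (edgeR adjusted p = 1.57e-04), and Slc16a6, a carrier of the monocarboxylate transporter family, fell by 0.45 ± 0.10 (edgeR adjusted p = 0.0017).

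Of 12 tested partners of pyruvate entry 4 rose and 5 fell, near the shares of 33.1% and 33.4% over all tested genes. Mpc1, a subunit of the mitochondrial pyruvate carrier, was at 24.3 CPM in each sgGal4-4 library, 74.6 and 70.8 with sgMiat-6, and 103 and 73.6 with sgMiat-96, and rose by 1.72 ± 0.14 (edgeR adjusted p = 2.55e-07). Me3, a mitochondrial malic enzyme that yields pyruvate, rose by 3.59 ± 0.27 (edgeR adjusted p = 1.15e-07) from 14 and 9 counts to 102 to 173. Gpt2, which interconverts pyruvate and alanine in mitochondria, fell by 1.04 ± 0.08 (edgeR adjusted p = 2.44e-07) from 555 and 580 CPM to 255 to 300. Pdpr, a regulator of the phosphatase that reactivates pyruvate dehydrogenase, fell by 1.71 ± 0.29 over both guides (edgeR adjusted p = 1.93e-04). It was at 22.9 and 17.1 CPM in sgGal4-4, 18.7 and 7.6 with sgMiat-6, which overlapped the controls, and 1.91 and 3.75 with sgMiat-96. Of 8 tested pentose phosphate and phosphoribosyl pyrophosphate genes 3 rose and 2 fell, among them Tigar, a fructose 2,6-bisphosphatase, up by 0.80 ± 0.10, and Prps2, a phosphoribosyl pyrophosphate synthetase, down by 0.58 ± 0.11 (edgeR adjusted p = 1.7e-05 and 3.2e-04).

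Of 16 tested regulators of glucose metabolism 5 rose and 8 fell, against 33.1% higher and 33.4% lower over all tested genes, with a median of -0.33. Myc, a transcription factor known to drive glycolytic genes, was at 197 and 199 CPM in sgGal4-4, 83.6 and 84.9 with sgMiat-6, and 90.1 and 86.6 with sgMiat-96, and fell by 1.2 ± 0.08 (edgeR adjusted p = 6.47e-08). Egln1 and Egln2, prolyl hydroxylases that mark hypoxia-inducible factors for degradation, rose by 1.21 ± 0.09 and 1.13 ± 0.11 (edgeR adjusted p = 1.2e-07 and 1.06e-06). Epas1, which encodes Hif2 alpha, had 0 counts in both sgGal4-4 libraries and 68 to 124 in the Miat libraries, at least 65.5-fold higher when the same group floor of 3 counts is used. Hif1a, named after its values were seen, was at 422 and 423 CPM in sgGal4-4, 298 and 223 with sgMiat-6, and 187 and 189 with sgMiat-96. It fell by 0.93 ± 0.11 (edgeR adjusted p = 5.73e-06). The part of these regulators in the rises and falls of the pathway genes was not tested.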

How the data were processed

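Of the 6 RNA libraries, the submitters' processing notes name STAR as the aligner and GRCm38 (mm10) as the genome. The sources used here give no version, read counter, annotation or strand handling. In the deposited files every RefSeq transcript has a whole-number count, an FPKM and a TPM, per the file headers. The deposited FPKM was used to recover transcript lengths (100% whole within 0.01%) and true zeros, because sgMiat-96 replicate 2 gives 1 count to 11223 rows whose FPKM is 0; these were taken as 0. TPM as deposited was used only in an alternative for isozyme shares. From 33984 rows the most counted one per symbol was kept (12 of the 40 genes have several).

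After filterByExpr and TMM scaling, counts of the 3 groups were fitted in edgeR 4.0.16 (limma 3.58.1, R 4.3.3; 3 residual degrees of freedom; prior count 0.125), with Benjamini-Hochberg adjustment over 13220 genes. Levels are CPM; SD is over 2 libraries, and SE is the log2 fold change divided by the square root of F. On simulated counts of 12200 genes for both guides against sgGal4-4, 64.2% of 1.5-fold, 94.0% of 2-fold and 100% of 4-fold changes were recovered, and 14 of 186 calls were false. Only 67, 67 and 66 genes were changed, by the same fold with each guide. Far more genes were called in the data, so these rates need not hold there. All 40 genes are accounted for; from each pathway list up to 4 called genes with the smallest adjusted p are named. One gene that this rule picks is not reported here. The genes and lists were chosen with earlier results of these data known. Replicate numbers did not pair the samples: the correlations of their differences were 0.01, -0.09 and -0.21. The 18 alternative fits varied the scaling, test (DESeq2 1.42.0, limma-voom), filter, transcript row, length trend, samples fitted, replicate block and the library left out. Promoters are RefSeq windows in GRCm38.p6, matched by symbol for 39 of 40 genes.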

Additional observations from a re-analysis of the deposited data

How the results depend on the processing

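Of the 40 genes, the 18 that rose and 12 that fell over both Miat guides kept their calls under all alternative fits except Hk2, Pdk3 and Pdhb, described above, and Pgls, at -8.7e-05 once the length trend was removed. Of the log2 fold changes called in any of the 4 comparisons, 1741 recomputed values kept direction and call, 83 lost the call and 4 turned sign. With 2 libraries a group, small differences such as those of Hk1, Dlat, Pdha1 and Rpia are below what the spread between libraries can resolve. The cause of each change below was not tested, and the number of all genes called also differed between these fits.

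With total counts in place of TMM, sgMiat-96 against sgMiat-6 gave 7 lower pathway genes, and 10 higher and 24 lower genes of the 109 listed. Over all 13220 tested genes 1380 were called higher and 3720 lower there. Signs turned there for Hk2 (-0.11), Pfkm (-0.065), Pfkp (-0.087), Pdk3 (-0.033) and Rpia (-0.10), for Hk1 (-0.11) and Pdha1 (-0.013) over both guides, and for Hk1 (-0.062) and Pdha1 (-0.17) with sgMiat-96 against sgGal4-4; none of these was called.

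With the length trend removed, sgMiat-96 against sgMiat-6 gave 2 lower pathway genes and 6 lower listed genes, against 1421 of 13220 tested genes. Signs turned for Pdhb (-0.14) and Dlat (0.15) over both guides, for Ldhb (-0.035), Pdhb (-0.10) and Pgls (-0.21) with sgMiat-6, for Hk2 (0.043), Pdhb (-0.18) and Dlat (0.073) with sgMiat-96, and for Pdk3 (-0.034), Pdhb (-0.078) and Rpia (-0.15) between the guides. Without a filter on low counts Dlat was at 6.9e-05 over both guides. Fitting only the groups compared left 2 lower pathway genes between the guides, against 2193 of 12730 tested genes.

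With the replicate number as a block, the pathway genes called lower between the guides went from 4 to 2. Over all tested genes they went from 2491 to 2124. The rise of Pdhb was lost (edgeR adjusted p = 0.0611), and the replicate numbers do not pair the samples. A crossed pairing of sgMiat-6 and sgMiat-96 libraries was chosen after seeing the data. It gave 19 higher and 5 lower pathway genes, against 2779 and 2907 of 12730 tested genes.

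With each library left out in turn, the listed genes called higher over both guides ranged from 26 to 39 and those called lower with sgMiat-6 from 14 to 23. Between the guides, pathway genes ranged from 10 to 17 higher and from 1 to 6 lower, and listed genes from 8 to 17 higher and from 0 to 14 lower. The Pfkfb2 share difference ranged from -2.34 to 0.039 points. Log2 differences that crossed 0, none of them called with all libraries fitted, ranged from -0.064 to 0.11 for Hk1 and -0.064 to 0.0499 for Dlat over both guides. With sgMiat-6 they ranged from -0.30 to 1.51 for Slc16a3, -0.16 to 0.31 for Pgls, -0.061 to 0.17 for Tkt and -0.54 to 0.0055 for Rpia. With sgMiat-96 they ranged from -0.037 to 0.30 for Hk1, -0.11 to 0.023 for Aldoc and -0.17 to 0.13 for Pdk2. Between the guides they ranged from -0.24 to 0.26 for Hk2, -0.10 to 0.21 for Pfkp, -0.085 to 0.31 for Pdk3 and -0.20 to 0.32 for Rpia.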

Other observations

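Genes around glycolysis that take up its NADH and its carbon were counted in the same comparison, in which 66.5% of all tested genes were called, 33.1% higher and 33.4% lower. Of 10 NADH shuttle genes 7 rose and 2 fell over both guides, and the largest change was in Gpd1, the cytosolic glycerol 3-phosphate dehydrogenase, which went from 37.0 and 31.4 CPM in sgGal4-4 to 1.59 and 2.65 with sgMiat-6 and 2.98 and 2.02 with sgMiat-96, a fall of 3.89 ± 0.18 (edgeR adjusted p = 1.67e-09). The malate-aspartate shuttle genes Mdh2, Slc25a11 and Got2 rose by 0.69 ± 0.10, 0.68 ± 0.10 and 0.62 ± 0.09 (edgeR adjusted p = 3.29e-05, 3.69e-05 and 5e-05), with all 4 Miat libraries above both controls. Of 16 tricarboxylic acid cycle genes 8 rose and 2 fell, against 33.1% higher and 33.4% lower over all tested genes. The succinate dehydrogenase subunits Sdhd and Sdhb rose by 0.93 ± 0.10 and 0.62 ± 0.10, the NADP-dependent isocitrate dehydrogenase Idh2 by 0.71 ± 0.09 and the succinyl-CoA ligase subunit Suclg1 by 0.53 ± 0.09 (edgeR adjusted p = 2.49e-06, 1.06e-04, 1.62e-05 and 2.61e-04).

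Of 14 glycogen and nucleotide sugar genes 7 rose and 4 fell, against the same 33.1% and 33.4%. The glycogen phosphorylases Pygm and Pygl rose by 2.51 ± 0.14 and 2.76 ± 0.25 (edgeR adjusted p = 6.61e-09 and 6.43e-07), Pygm from 5.87 and 6.54 CPM in sgGal4-4 to 28.9 and 32.8 with sgMiat-6 and 40.5 and 40.8 with sgMiat-96. In the hexosamine pathway, which branches off at fructose 6-phosphate, Gfpt1, its rate-limiting enzyme, fell by 1.67 ± 0.11 from 156 and 152 CPM to 64.4 and 48.3 and then 39.5 and 43.4, and Uap1, which makes UDP-N-acetylglucosamine, fell by 1.12 ± 0.10 (edgeR adjusted p = 4.38e-08 and 7.96e-07). Egln3, Arnt, Mlx and Txnip were named after their values were seen. The prolyl hydroxylase Egln3 fell by 2.08 ± 0.21 and Arnt, the partner of the hypoxia-inducible factors, by 0.59 ± 0.11 (edgeR adjusted p = 2.36e-06 and 2.82e-04). Mlx, a partner of glucose-sensing transcription factors, and Txnip, a glucose-induced inhibitor of glucose uptake, rose by 0.73 ± 0.12 and 0.40 ± 0.10 (edgeR adjusted p = 1.07e-04 and 0.00367). Txnip was at 52.6 and 54.8 CPM in sgGal4-4 and 91.5 and 88.2 with sgMiat-96. With sgMiat-6 it was at 59.4 and 51.9, overlapping the controls.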
